A study of Mus musculus with 11 samples.

Results

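The contrast described here set the hippocampus 1 h after intranasal insulin against the hippocampus 15 min after it. It rests on 5 of the 11 libraries of the study, 3 taken at 1 h (replicates 1, 2 and 3) and 2 taken at 15 min (replicates 1 and 3), chosen by the time in their labels. All came from male C3-C57B1/6J mice aged 2 to 3 months, with no genetic change named, that received insulin at 2.4 IU per nare and were under isoflurane when the brain was removed. The other 6 libraries were 3 from mice that the titles call saline-treated (the treatment label reads untreated and the time label 0 min) and 3 from mice 6 h after the same insulin dose. They entered the contrast through the shared estimate of the spread and through the choice of rows tested and genes named, which used all 11 libraries. Their values are given beside it. Whole hippocampal tissue was measured, so in these bulk samples fewer cells of a type and less RNA per cell cannot be told apart. The labels state 3 animals per time without saying that each library is 1 animal. The spread is therefore that between libraries.

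Insulin binds a receptor tyrosine kinase on neurons, glia and vessels and signals through insulin receptor substrates to PI3K and AKT and through RAS to the MAP kinases. Immediate early genes are the first transcripts that follow such signals or neuronal firing. They need no new protein for their induction, and their mRNAs are short-lived, so that levels can fall again soon after the stimulus ends. Genes that depend on newly made proteins or on loading of the endoplasmic reticulum come later. The time step from 15 min to 1 h therefore compares a first wave of transcripts with what remains or follows. The study's title places it in the switch of astrocytes towards fatty acids as fuel.

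The 5 libraries held a log2 signal for 32037 to 32640 of the 46202 gene rows. The sequencing depth is unknown. Column suffixes numbered 7 and 9 at 15 min and 10 to 12 at 1 h run by group, and what they count is not stated, so their order and the time after insulin cannot be told apart. Markers of the labelled tissue were present, since all 9 dentate granule and all 11 pyramidal neuron markers had a value in every library. The same held for all 10 striatum and all 9 thalamus and habenula markers, so having a value does not identify the tissue. Choroid plexus markers differed between libraries of the same time. Their summed level was 7.17 and 5.02 on the log2 scale in 15 min replicates 1 and 3, and 2.40, 4.65 and 6.60 in 1 h replicates 1, 2 and 3.

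No gene passed the threshold between the times. Of 27645 rows tested with limma, 0 (0%) had an adjusted p under 0.05, and the smallest adjusted p was 0.9998. At an unadjusted p under 0.05 stood 656 rows that were higher at 1 h (2.37%) and 313 that were lower (1.13%). The median log2 difference over all rows was 0.02. Where all 5 libraries had a value, all 1 h libraries lay above both 15 min libraries in 2878 of 26308 rows (10.9%) and below both in 1689 (6.42%). These counts leaned on single libraries. Without 15 min replicate 1, 1441 rows were higher at that unadjusted level, and without 1 h replicate 3, 686 were lower, still with 0 past the threshold in either case. Every difference named below therefore failed the correction over all rows, and the standard errors (SE) and 95% intervals given are limma's, for 1 gene at a time.

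The intervals bound how large an unseen difference could be. The 95% interval lay within 1 log2 unit of 0, a 2-fold difference either way, for 18083 rows (65.4%). In the third of rows with the highest signal this held for 8875 of 9215 (96.3%), with a median half-width of 0.27, or 1.21-fold. In the third with the lowest signal it held for 21.7%, with a half-width of 1.10, or 2.14-fold. In weakly expressed genes the interval of 1 gene was thus mostly too wide to exclude a 2-fold difference. These intervals do not give the size needed to pass the correction over all rows. Rrad, described below, was 2.33-fold higher at 1 h and had an adjusted p of 0.9998 in the limma test.

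Distances between libraries of the 2 times overlapped those between libraries of 1 time. Over 25771 rows with a value everywhere, the median absolute log2 difference between the 2 libraries at 15 min was 0.231. Among the 3 at 1 h it was 0.168, 0.193 and 0.214. From 15 min replicate 1 to the 1 h libraries it was 0.166, 0.166 and 0.18, below the distance within 15 min and within the range or below it at 1 h. From 15 min replicate 3 it was 0.272, 0.227 and 0.177 to 1 h replicates 1, 2 and 3. The first of these was above every distance within 15 min and within 1 h, while distances within 6 h reached 0.327. The replicates numbered 3 were thus the closest pair for that library, and both stood apart from the others in the neuronal gene lists described below.

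**Figure D1:**
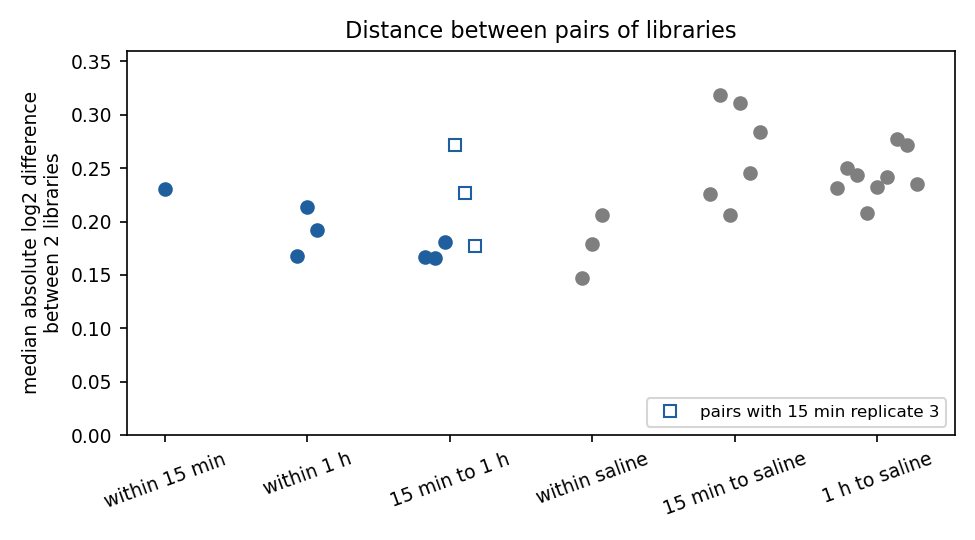
Median absolute log2 difference between 2 libraries (vertical axis) over 25771 rows, for pairs of libraries of 1 group and of different groups, 1 point per pair. The 6 pairs that join 15 min and 1 h (0.166 to 0.272) overlap the pairs within 15 min (0.231) and within 1 h (0.168 to 0.214); squares mark pairs with 15 min replicate 3.

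Immediate early genes showed mostly small differences between the times, and the members with the smallest p-values were lower at 1 h. All 32 listed members were tested and 0 passed the threshold. At an unadjusted p under 0.05 stood 3 members that were lower, against 1.13% of all rows, and 0 that were higher. All 1 h libraries lay below both 15 min libraries in 6 of 32 members and above them in 0, beside 6.42% and 10.9% of all rows. The median log2 difference of the list was -0.13, beside 0.02 for all rows, and 9 of 32 members were positive. Without 15 min replicate 3 the median was -0.04 with 14 of 32 positive, and without 1 h replicate 2 it was -0.06. Leaving out 1 library at these times gave 3 or 4 members lower at that unadjusted level.

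Cyr61, now also named Ccn1, encodes a secreted matrix protein of the CCN family that is an early target of serum response factor and YAP. It lies on chromosome 3, from 145646971 to 145649985 in GRCm38. Its log2 signal was -0.02 and -0.20 at 15 min and -0.68, -1.08 and -0.99 at 1 h. Saline libraries read -1.33, -1.42 and -1.19, and 6 h libraries -1.12, -0.91 and -1.06. The 1 h libraries lay below both 15 min libraries without overlap, above all 3 saline libraries, and among or close to those of 6 h. The difference was -0.80 (SE 0.14, 95% interval -1.11 to -0.50), or 1.75-fold lower at 1 h. This was the smallest p among the 12 named genes that were lower at 1 h.

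Btg2 encodes an antiproliferative adaptor of the mRNA deadenylation machinery and lies on chromosome 1, from 134074865 to 134079155. Its log2 signal was 1.19 and 0.89 at 15 min and 0.69, 0.46 and 0.59 at 1 h. Saline libraries read 0.70, 0.87 and 0.74, so that 15 min stood above them and 1 h stood at or below their lowest value. The difference was -0.46 (SE 0.12). Zfp36 encodes tristetraprolin, which binds AU-rich elements and speeds the decay of cytokine and early gene mRNAs. It read -0.17 and -0.30 at 15 min and -0.52, -0.48 and -0.92 at 1 h, a difference of -0.40 (SE 0.18). Its 1 h libraries lay between those of 15 min and those of saline, which read -1.38, -1.27 and -1.07.

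The 250 bases before the start of Cyr61 and Btg2, from RefSeq on GRCm38.p6, are shown because these were the early genes with the smallest p-values. Capitals mark a cAMP response element (TGACGTCA, searched on both strands), the site of the factor CREB. Among the early genes it was found in Btg2, at -166 to -159 from the start, and in Maff, or 2 of 30 promoters of the 24 members with an entry (6.67%). Of all 32851 promoters of 300 bases in the table, 1.79% held it. The CArG box, the site of serum response factor, was found in 6 of these 30 promoters, of the genes Egr2, Srf and Zfp36, and in 1.63% of all promoters. Neither this motif, a CArG box, an E-box (CACGTG) nor the FOXO element GTAAACA was found in the Cyr61 window.
Cyr61, chr3:145649986-145650235, minus strand: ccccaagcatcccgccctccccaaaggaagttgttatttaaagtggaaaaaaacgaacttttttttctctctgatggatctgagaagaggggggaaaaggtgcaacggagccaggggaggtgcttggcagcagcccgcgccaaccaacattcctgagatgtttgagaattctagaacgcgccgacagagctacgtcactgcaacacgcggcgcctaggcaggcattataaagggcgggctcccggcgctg
Btg2, chr1:134079156-134079405, minus strand: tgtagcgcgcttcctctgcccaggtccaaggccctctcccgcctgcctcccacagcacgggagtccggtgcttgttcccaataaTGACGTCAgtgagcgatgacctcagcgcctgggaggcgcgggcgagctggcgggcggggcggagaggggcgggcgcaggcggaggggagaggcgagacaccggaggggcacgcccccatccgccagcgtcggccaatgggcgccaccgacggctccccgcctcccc

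Fos, the partner of JUN in the AP-1 factor, was still high at 1 h. Its log2 signal was 2.64 and 2.55 at 15 min, 2.46, 2.47 and 2.02 at 1 h, and 0.98 as the middle of the 3 saline libraries. All 1 h libraries lay below both 15 min libraries, yet far above saline and above 6 h (0.90, 1.18 and 1.17). The difference between the times was -0.28 (SE 0.14, 95% interval -0.59 to 0.03), beside a difference from saline of 1.64 at 15 min and 1.36 at 1 h, 2 values that share the saline libraries. Klf4, a zinc finger factor of endothelium and other cells, read -0.27 and -0.14 at 15 min and -0.21, 0.02 and -0.32 at 1 h. The groups overlapped, with a difference of 0.03 and an interval of -0.30 to 0.37, while saline stood at -2.35 to -1.98 and 6 h at -1.72 to -1.48. Fosb differed by -0.04 (interval -0.61 to 0.53) and Nr4a1, an orphan nuclear receptor, by -0.08 (-0.34 to 0.18). The lower end of the interval was a 1 h level of 0.811 times that at 15 min for Klf4 and 0.791 times for Nr4a1.

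Klf2, the shear-responsive factor of endothelium, read 1.14 and 0.52 at 15 min and 0.59, 0.49 and 0.18 at 1 h, a difference of -0.41 (SE 0.21). The groups overlapped only through 15 min replicate 3, and all 5 libraries were above saline (-1.45 to -1.29). Junb differed by -0.50 (SE 0.23) and Arc, a synaptic early gene, by -0.53 (SE 0.29). Arc read 2.62 and 3.50 at 15 min and 2.18, 2.37 and 3.04 at 1 h, so that replicate 3 was the highest library at each time. The same order held for Egr3, at -0.24 and 1.12 against -0.76, -0.91 and 0.99, and for Egr4, at -1.01 and 0.07 against -1.09, -1.43 and 0.04. In these neuronal activity genes the gap between replicates of 1 time was larger than the gap between the times. Maff, a small MAF factor, had the largest positive difference of the list, 0.58 (SE 0.28), with overlapping groups.

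**Figure D2:**
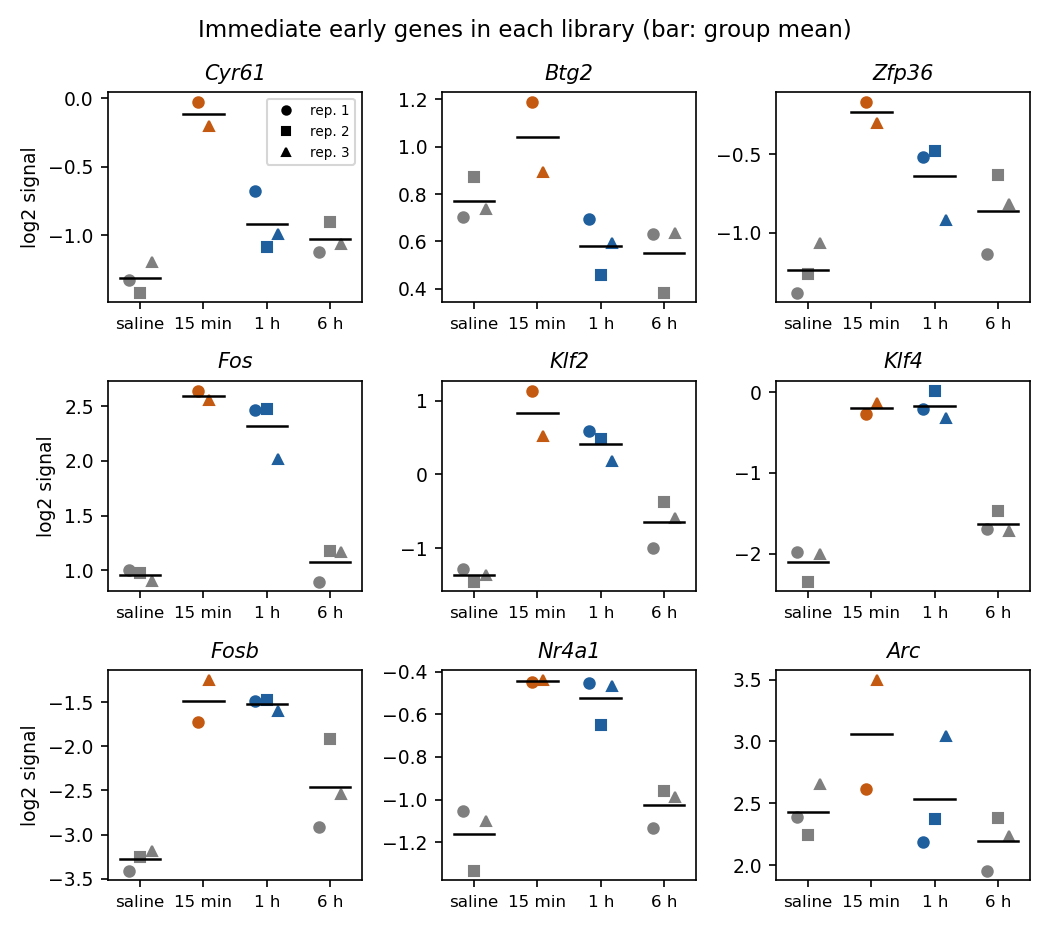
Log2 signal (vertical axes) of 9 immediate early genes in all 11 libraries by group, 1 point per library with its replicate number as the shape and the group mean as a bar. Cyr61, Btg2 and Zfp36 are lower at 1 h than at 15 min in every library, Klf4, Fosb and Nr4a1 stay near their 15 min level, and in Arc replicate 3 is highest at both times.

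Unfolded protein response genes were mostly a little higher at 1 h. These genes are switched on when unfolded proteins load the endoplasmic reticulum, through the sensors IRE1, ATF6 and PERK. Of 24 members, all tested, 0 passed the threshold, 4 were higher at an unadjusted p under 0.05 beside 2.37% of all rows, and 0 were lower. All 1 h libraries lay above both 15 min libraries in 8 of 24 and below in 0, beside 10.9% and 6.42% of all rows. The median log2 difference was 0.14, and 21 of 24 members were positive. The count of 4 became 1 without 1 h replicate 2, 2 without 1 h replicate 1 and 6 without 1 h replicate 3. Of all rows, 590 of 27610, 507 of 27589 and 733 of 27588 were then higher at that unadjusted level. Without 15 min replicate 1 the median of the list was 0.11, with 18 of 24 positive.

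Xbp1, on chromosome 11 from 5520641 to 5525993, encodes the transcription factor that IRE1 activates by splicing its mRNA. Its log2 signal was 3.13 and 3.31 at 15 min and 3.63, 3.57 and 3.43 at 1 h, beside 3.24, 3.34 and 3.20 with saline and 3.19, 3.12 and 3.16 at 6 h. The 3 libraries at 1 h were the highest of all 11. The difference was 0.33 (SE 0.08, 95% interval 0.14 to 0.51), or 1.25-fold. Sdf2l1, a component of a chaperone complex of the endoplasmic reticulum, read 1.38 and 1.30 at 15 min and 1.88, 2.06 and 1.46 at 1 h, a difference of 0.46 (SE 0.16). Creld2, a secreted disulfide isomerase-like protein, read -0.41 and -0.42 against 0.09, 0.19 and -0.27, a difference of 0.42 (SE 0.15). In both genes 1 h replicates 1 and 2 were clearly higher and replicate 3 stood close to 15 min.

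Manf, a neurotrophic protein released on stress of the endoplasmic reticulum, differed by 0.20 (SE 0.08). Hspa5, which encodes the chaperone BiP, read 5.47 and 5.65 at 15 min and 5.92, 6.02 and 5.63 at 1 h, so that replicate 3 lay within the 15 min range. Its difference was 0.30 (SE 0.13). Targets of the amino acid and PERK branch differed little. Atf4 differed by 0.06 (SE 0.18), Ddit3, the factor CHOP, by 0.10 (SE 0.14) and Asns, asparagine synthetase, by 0.01 (SE 0.17). Hsp90b1, another chaperone of the compartment, differed by 0.00 (95% interval -0.24 to 0.24).

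The promoter of Creld2 is shown because it holds an ER stress response element, CCAAT and CCACG set 9 bases apart (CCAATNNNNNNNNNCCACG on either strand), at -126 to -108 from the start. Capitals mark it, here read from the reverse strand. The element was found in 7 of 21 list members with a promoter entry (Calr, Creld2, Derl3, Dnajc3, Hsp90b1, Hspa5 and Pdia6) and in 0.119% of all promoters. Hsp90b1, which holds it, differed by 0.00, and the windows of Xbp1 and Sdf2l1 held no match.
Creld2, chr15:88819396-88819645, plus strand: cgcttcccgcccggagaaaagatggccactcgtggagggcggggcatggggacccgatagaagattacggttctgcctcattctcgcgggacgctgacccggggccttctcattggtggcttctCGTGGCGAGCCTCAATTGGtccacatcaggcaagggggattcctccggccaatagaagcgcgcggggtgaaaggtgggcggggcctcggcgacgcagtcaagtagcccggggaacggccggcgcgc

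**Figure D3:**
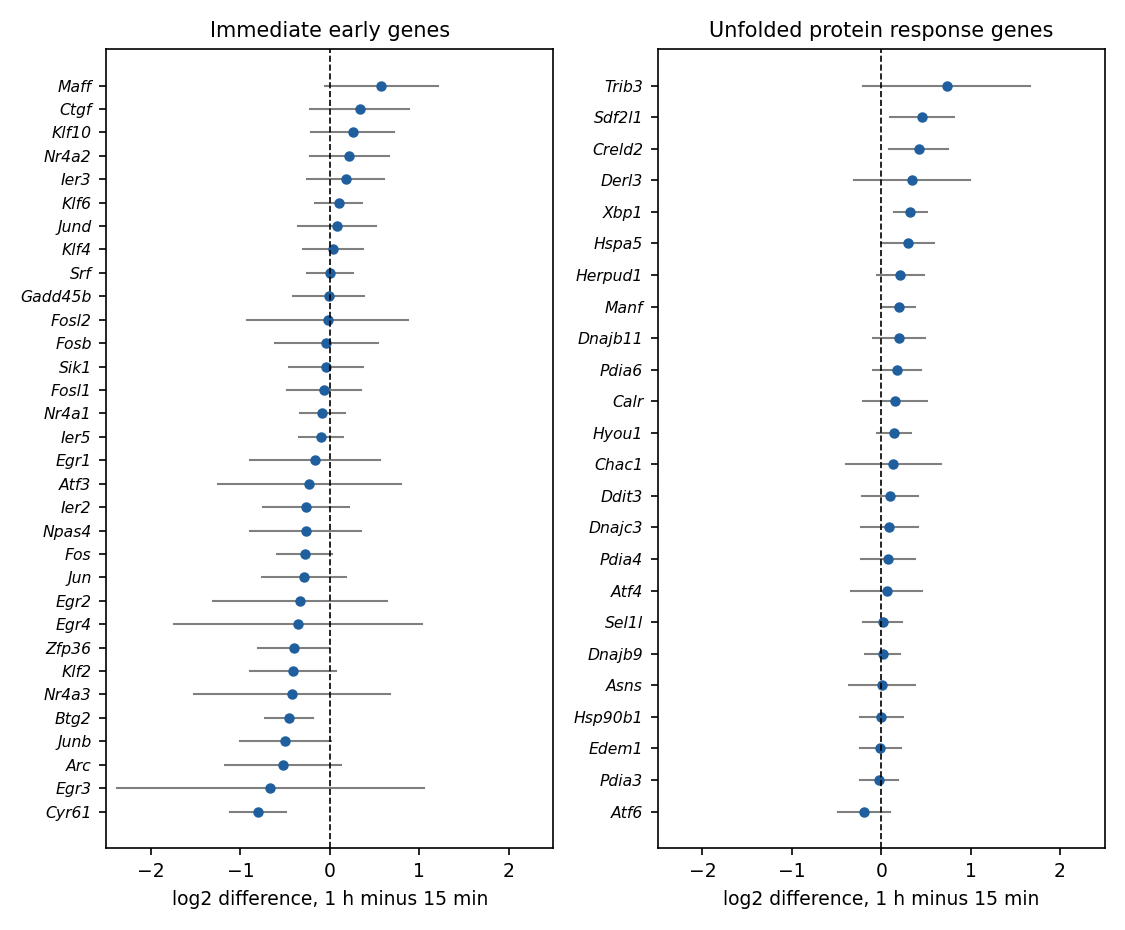
Log2 difference between 1 h and 15 min (horizontal axes) of the 32 immediate early genes and the 24 unfolded protein response genes, as points with 95% limma intervals. The interval excludes 0 for Cyr61, Btg2 and Zfp36 on the lower side and for Xbp1, Sdf2l1, Creld2 and Manf on the higher side, before correction over all rows.

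Among all genes of at least median signal, the 12 with the smallest p that were higher at 1 h had varied known roles. Rrad, a RAS-related GTPase that restrains calcium channels, read -2.25 and -1.50 at 15 min and -0.29, -0.62 and -1.05 at 1 h. Saline libraries lay between -2.21 and -1.94, below all 1 h libraries. Its difference was 1.22 (SE 0.32), or 2.33-fold, the largest of the 12. Syngr3, a synaptic vesicle protein, read 3.82 and 3.86 at 15 min and 4.12, 4.06 and 4.03 at 1 h, a small difference of 0.23 (SE 0.07) with tight groups. Its saline libraries read 3.62 to 3.76. Kdm4dl, a relative of the histone demethylase family, had the smallest p of the 12, with -2.74 and -3.16 at 15 min and -1.84, -1.96 and -2.06 at 1 h. Its difference was 1.00 (SE 0.19). In this gene it is the 15 min libraries that stand apart, since saline (-2.22 to -1.77) and 6 h (-2.00 to -1.67) were at the 1 h level. Rprm, a p53-induced cell cycle inhibitor, showed the same order, at 2.03 and 1.96 against 2.56, 2.36 and 2.67, with saline at 2.28 to 2.52. The others were Amn (0.72), Rnf138rt1 (0.58), Gatsl3 (0.56), Man2c1os (0.49), Fbxl22 (0.43), Ocel1 (0.40) and Cmtm3 (0.36).

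The 12 that were lower at 1 h held, beside Cyr61 and Btg2, the potassium channel genes Kcnj3, Kcnd2 and Kcnip4. Kcnj3 encodes a G protein-gated potassium channel of neurons and read 0.82 and 1.04 at 15 min and 0.60, 0.51 and 0.67 at 1 h. Its difference was -0.34 (SE 0.11). Kcnd2, the A-type channel Kv4.2 of hippocampal dendrites, differed by -0.24 (SE 0.09) and Kcnip4, which binds Kv4 channels, by -0.26 (SE 0.09). Kcnip4 read 2.19 and 2.13 at 15 min and 1.99, 1.87 and 1.86 at 1 h, with saline above both at 2.42 to 2.52. Epha7, a receptor of ephrins, differed by -0.50, Zfp804a by -0.32, Ccdc85a by -0.33 and Hs6st3, a heparan sulfate sulfotransferase, by -0.27. TrnM, the mitochondrial methionine tRNA, differed by -0.90 (SE 0.28), and Maml2_1 and Chn1os3 by -0.74 and -0.41.

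These 2 groups of named genes differed in the length of the gene on the genome. The 12 higher genes spanned 1.01 to 8.29 kb, and 7 of the 11 lower genes with a RefSeq position spanned over 100 kb, up to 1136 kb in Kcnip4. A comparison by span over all rows, made after these values were seen, stands in the closing section, and the part of gene length in these differences was not tested.

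Lists of genes of fuel use and lipids, the subject of the study's title, had small median differences between the times. In fatty acid oxidation and the carnitine shuttle, 0 of 31 members passed the threshold or an unadjusted p under 0.05. In a list of this size that is near the shares of all rows at that unadjusted level, 2.37% higher and 1.13% lower. The median log2 difference was 0.04, beside 0.02 for all rows. Cpt1a, the rate-limiting carnitine transferase, read -1.42 and -1.75 at 15 min and -1.66, -1.49 and -1.51 at 1 h. The groups overlapped, with a difference of 0.03 (95% interval -0.30 to 0.36). Acadvl and Hadha, enzymes of the long-chain spiral, differed by 0.04 (-0.18 to 0.27) and 0.01 (-0.20 to 0.22). Acads, the short-chain dehydrogenase, had the smallest p of the list, with a difference of 0.35 (SE 0.16) and 15 min replicate 3 as the lowest library. It read -1.71 and -2.32 at 15 min and -1.65, -1.62 and -1.73 at 1 h. Of the 31 members 24 were positive, but 10 were when 15 min replicate 3 was left out, with a median of -0.02. When 15 min replicate 1 was left out instead, 27 were positive, with a median of 0.12.

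Ppara, the fatty acid receptor that drives oxidation genes, read -3.63 and -3.70 at 15 min and -3.46, -3.35 and -3.48 at 1 h, a difference of 0.23 (SE 0.17) without overlap of the groups. Pdk4, the kinase that shuts pyruvate out of oxidation, read -0.17 and -0.02 at 15 min and -0.32, -0.17 and -0.04 at 1 h. Its difference was -0.09 (interval -0.46 to 0.28), with 6 h at -1.40 to -0.88. Angptl4, an inhibitor of lipoprotein lipase, read -2.04 and -2.54 against -2.38, -1.23 and -2.37, where 1 h replicate 2 alone was high. In lipid droplets and lipases all 1 h libraries were above both 15 min libraries in 7 of 25 members tested, beside 10.9% of all rows, with a median of 0.06. The median was 0.02 with 15 of 25 positive without 15 min replicate 3, and 0.15 with 21 positive without 15 min replicate 1. Bscl2, the droplet protein seipin, differed by 0.13 (SE 0.07) and Plin2, a droplet coat protein, by 0.26 (SE 0.26).

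Cholesterol genes leaned to the higher side in small steps. Of 33 members 0 had an unadjusted p under 0.05, a count near the shares of all rows (2.37% higher and 1.13% lower). The median was 0.08, beside 0.02 for all rows, and 28 members were positive. All 1 h libraries lay above both 15 min libraries in 6 members and below in 0, beside 10.9% and 6.42% of all rows. The median was 0.05 without 15 min replicate 3 or without 1 h replicate 1, and 0.13 without 1 h replicate 3. Mvk, mevalonate kinase, read -1.32 and -1.41 at 15 min and -0.88, -1.21 and -1.22 at 1 h, a difference of 0.26 (SE 0.14). Sqle and Fdft1, enzymes at the branch to squalene, differed by 0.13 each (SE 0.08), and Lss, which closes the sterol rings, by 0.15 (SE 0.08). Fatty acid synthesis had a median of 0.01, with Fasn at 0.05 (interval -0.39 to 0.49), and ceramide genes a median of 0.01, with Cers1 at 0.34 (SE 0.22).

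In lactate and ketone body exchange Acat2, a thiolase of acetyl groups, read 0.31 and 0.12 at 15 min and 0.51, 0.60 and 0.35 at 1 h. Its difference was 0.27 (SE 0.10), the only member of 13 at an unadjusted p under 0.05, beside 2.37% of all rows higher and 1.13% lower. Slc16a3, a lactate exporter, differed by 0.27 (SE 0.17). Glycolysis and glucose transport had a median of 0.02 with 0 of 22 members at an unadjusted p under 0.05, near those shares of all rows. Slc2a1, the glucose carrier of vessels and astrocytes, differed by 0.02 (interval -0.33 to 0.38). Genes of the insulin pathway itself had a median of -0.01 over 40 members. Insr, the receptor, differed by -0.07 (interval -0.41 to 0.28) and Irs2, a docking substrate, by -0.01 (-0.46 to 0.44). Grb14, an adaptor that inhibits the receptor, read -0.91 and -0.86 at 15 min and -1.21, -1.23 and -0.94 at 1 h, a difference of -0.24 (SE 0.12).

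**Figure D4:**
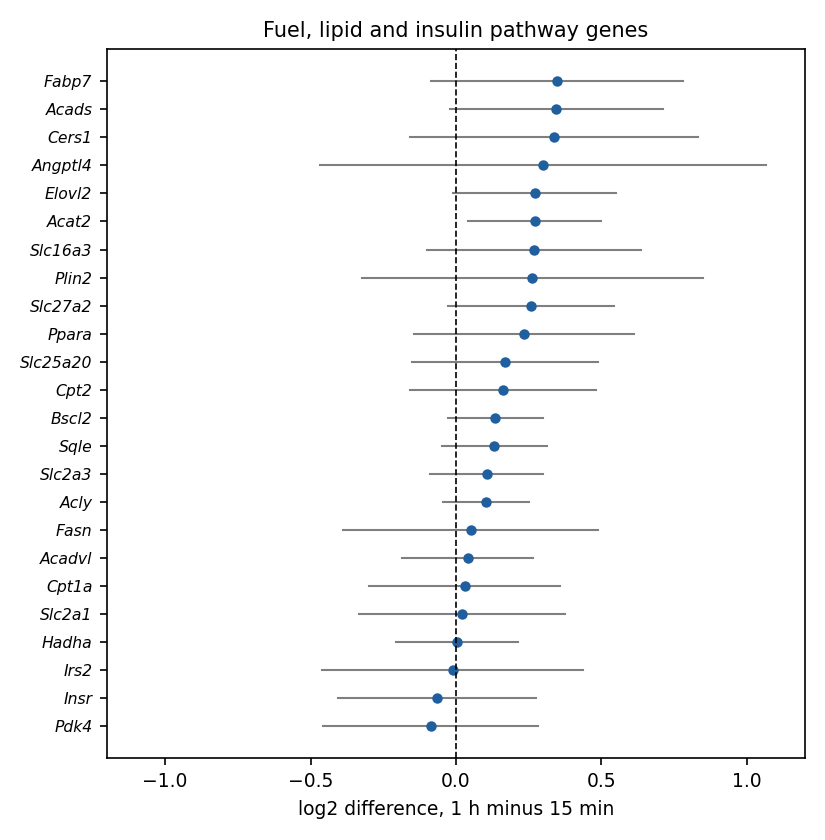
Log2 difference between 1 h and 15 min (horizontal axis) of 24 genes of fatty acid, sterol, ketone, glucose and insulin pathways, as points with 95% limma intervals. All points lie between -0.09 and 0.35, and before correction the interval excludes 0 for Acat2 alone. These 24 were picked from larger lists, and members not drawn reached further. The full range was -0.43 to 1.21 in the insulin pathway list and -0.21 to 1.36 in lipid droplets and lipases.

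Stress hormone and FOXO target genes held no member at an unadjusted p under 0.05. In lists of 22 and 24 members that is near the shares of all rows, 2.37% higher and 1.13% lower. The 22 glucocorticoid responsive genes had a median of -0.05. All 1 h libraries lay below both 15 min libraries in 4 of them and above in 1, beside 6.42% and 10.9% of all rows. Sgk1, a kinase induced by corticosteroids, read 0.72 and 0.56 at 15 min and 0.45, 0.61 and 0.50 at 1 h, a difference of -0.12 (interval -0.53 to 0.29). Fkbp5, a brake on the glucocorticoid receptor, read -0.90 and -0.84 against -1.03, -0.93 and -1.04, a difference of -0.12 (-0.50 to 0.25) without overlap. Tsc22d3, also called Gilz, read 1.15 and 1.16 against 1.50, 1.64 and 1.19, a difference of 0.29 (SE 0.14), also without overlap. The 24 FOXO targets had a median of -0.01. Txnip, a glucose-sensing arrestin-like protein among them, differed by 0.44 (SE 0.26) with overlapping groups.

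In the inflammatory list 2 of 21 members were lower at an unadjusted p under 0.05 and 0 were higher, beside 1.13% and 2.37% of all rows. Cxcl1, a neutrophil chemokine, read -2.27 and -3.91 at 15 min and -5.31, -4.88 and -5.20 at 1 h, a difference of -2.04 (SE 0.70). Ccl4, a chemokine of microglia, read -7.46 and -6.36 against -7.97, -8.20 and -7.96, a difference of -1.13 (SE 0.42). Both sat low on the signal scale, where the spread is wide. Ccl3, the neighbour and relative of Ccl4, had a difference of the other sign, 1.06 (SE 0.52). Nfkbia, the feedback inhibitor of NF-kappaB, differed by 0.08 (interval -0.23 to 0.40). Cytosolic heat shock genes had a median of 0.05, and Dnajb1, a cochaperone of HSP70, read 3.15 and 3.66 at 15 min and 3.56, 4.12 and 3.23 at 1 h.

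Levels of neuronal and translation genes differed between libraries of 1 time at least as much as between the times. Of 42 genes of the excitatory synapse 3 were positive, and the median log2 difference was -0.22. Grin2a, an NMDA receptor subunit, read -0.33 and -0.13 at 15 min and -0.88, -0.83 and -0.40 at 1 h, a difference of -0.47 (SE 0.18). Stx1a, a syntaxin of vesicle fusion, was on the other side, at 0.35 (SE 0.13). The list stood 0.32 above the 5-library mean in 15 min replicate 3 and 0.12 above it in 1 h replicate 3. In 15 min replicate 1 and 1 h replicates 1 and 2 it stood at -0.06, -0.19 and -0.17. Without 15 min replicate 3 the median difference was -0.03 and 17 of 42 members were positive, and without 15 min replicate 1 it was -0.40. With 1 h replicates 1, 2 and 3 left out in turn, the median was -0.16, -0.17 and -0.32. Interneuron and GABA genes stood at -0.08 and 0.40 at 15 min and -0.21, -0.23 and 0.31 at 1 h, again with the replicates numbered 3 on top.

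Cytosolic ribosomal protein genes were lowest in 15 min replicate 3. They had a median difference of 0.09 with 61 of 78 positive, 3 of 78 at an unadjusted p under 0.05 on the higher side (Rpl37a, Rpl36 and Rps14) and 11 fully above, shares near the 2.37% and 10.9% of all rows. The list stood at 0.08 and -0.20 in the 15 min libraries and at 0.09, -0.03 and 0.05 at 1 h. Without 15 min replicate 3 the median was -0.03 and 29 of 78 were positive. Without 15 min replicate 1 the median was 0.24 and 69 of 78 were positive. Nuclear genes of oxidative phosphorylation were also lowest in 15 min replicate 3, at -0.13 against 0.01 to 0.07 in the other 4 libraries. Of 70 members 53 were positive, with 13 positive without 15 min replicate 3 and 65 without 15 min replicate 1. Their named members were Ndufs5 at 0.35 (SE 0.15) and Ndufv1 at 0.15 (SE 0.07). Genes encoded by the mitochondrial genome had a median of -0.11 over 13 members, with ATP6 at -0.55 (SE 0.29). What sets the 15 min libraries apart from each other was not tested.

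**Figure D5:**
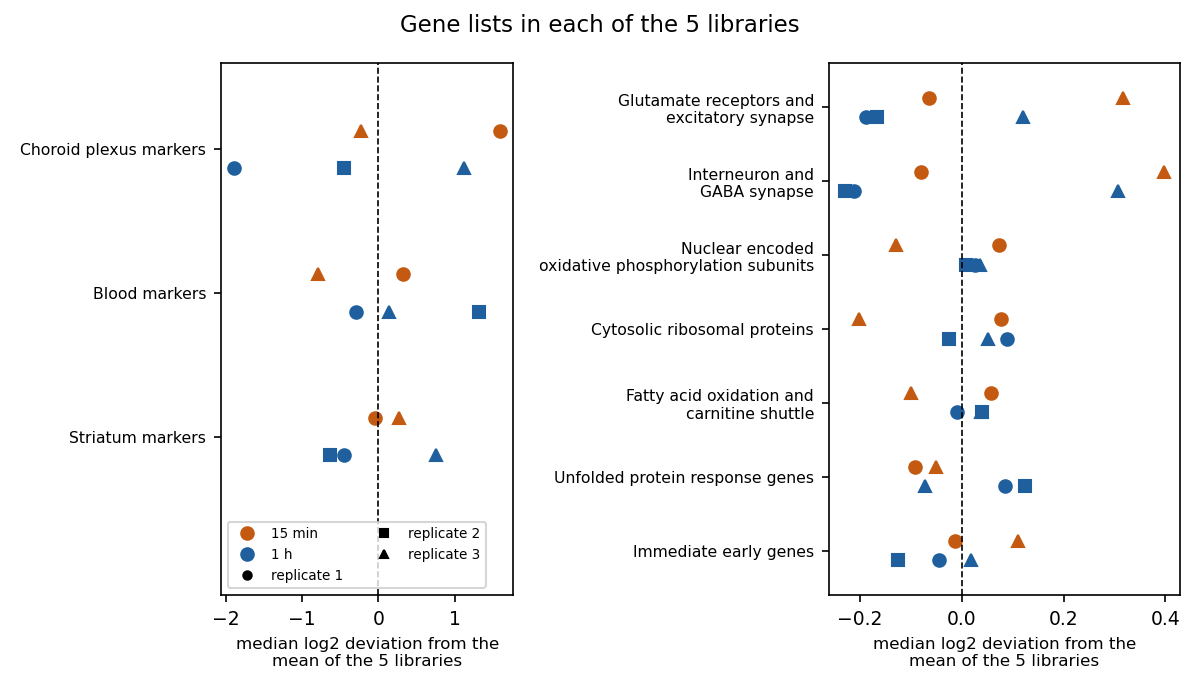
Median deviation of 10 gene lists in each library from the mean of the 5 libraries, in log2 units (horizontal axes), with colour for the time and shape for the replicate. In all 10 lists the ranges of the 2 times overlap, and the synapse and interneuron lists are highest in replicate 3 at each time.

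Markers of cell types that dissection can add also moved by library. All 12 choroid plexus markers tested had a negative difference, with a median of -1.08. The groups separated in 0 of them, in a list of this size near the shares of all rows (10.9% above and 6.42% below). Ttr, transthyretin of the choroid plexus, read 6.98 and 4.71 at 15 min and 1.17, 4.29 and 6.39 at 1 h. Blood markers had a median of 0.39 and stood 1.32 above the 5-library mean in 1 h replicate 2, where S100a8, a neutrophil gene, read 0.33 against -5.15 to -2.17 elsewhere. Their median was -0.20 without 15 min replicate 3 and 0.09 without 1 h replicate 2, and 0.91 and 0.69 without replicate 1 of 15 min and of 1 h. Their summed log2 level was 6.05 to 7.05 at 15 min and 6.42 to 7.13 at 1 h. Meninges markers had a median of 0.39, with Slc47a1 at 2.20 (SE 0.66) and Slc22a6 at 0.94 (SE 0.33), both transporters and the 2 of 10 members at an unadjusted p under 0.05 on the higher side, beside 2.37% of all rows. Of the 10, 9 were positive and 4 lay fully above, beside 10.9% of all rows, and the median was 0.60 and 0.13 without 15 min replicates 1 and 3 and 0.22 without 1 h replicate 2. Their summed level was 4.99 to 5.56 at 15 min and 5.15 to 5.64 at 1 h. Striatum markers were highest in 1 h replicate 3, at 0.75 above the mean, and lowest in 1 h replicate 2, at -0.63. The part of such tissue in the gene differences above was not tested.

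Astrocyte markers had a small median difference, 0.03 over 12 members that ranged from -0.59 to 0.16. At an unadjusted p under 0.05 stood 0 of them, near the shares of all rows (2.37% higher and 1.13% lower). Their summed log2 level was 8.10 and 8.16 at 15 min and 8.06 to 8.19 at 1 h. Aqp4, the water channel of their endfeet, differed by -0.04 (SE 0.16) and Aldh1l1 by 0.14 (SE 0.10). Dentate granule neuron markers had a median of -0.33, with 8 of 9 negative. All 1 h libraries lay below both 15 min libraries in 3 of them, beside 6.42% of all rows, and 1 was lower at an unadjusted p under 0.05, beside 1.13%. The list stood at 0.38 and 0.12 at 15 min and at -0.19, -0.26 and -0.04 at 1 h, relative to the 5-library mean. Leaving out 1 of these libraries gave medians from -0.41 to -0.22. Prox1, the factor that marks these neurons, read 0.70 and 0.77 at 15 min and 0.55, 0.13 and 0.54 at 1 h, a difference of -0.33 (SE 0.16), and Dsp, desmoplakin, differed by -1.75 (SE 0.67). Microglia and endothelial markers had medians of 0.02 and 0.01.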

How the data were processed

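Hippocampal RNA of 11 libraries was measured with a stranded total RNA kit read from both ends, per the labels' protocols. Each row of the table the authors deposited holds the log2 signals of 1 gene symbol. Software named in the submitters' processing notes is bcl2fastq and Partek 6.7, with the build GRCm38; which aligner and counter were used is not given in the sources used here. In the table every library shares the same minimum, median and maximum, as after quantile normalization. Base 2 is read from the range of the values and is not stated, nor is any scaling by gene length, so levels are not compared between genes. A row without a value was treated as missing. Read counts and depth are unknown.

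Rows in the lowest 40% by mean were left out (missing values set at the lowest value for this ranking only), which kept 27721 of 46202 rows, 1950 with a missing value, and 76 of these had no value in 1 of the 2 groups. limma 3.58.1 in R 4.3.3 fitted the 4 groups of libraries together, with a mean-variance trend. Tests were two-sided and adjusted by Benjamini-Hochberg at 0.05. Means are compared as 1 h minus 15 min, and the SE is the moderated standard error. The code was tested on simulated data.

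The contrast, the 44 gene lists (28 of pathways, 16 of cell type or region markers; 892 of 913 genes tested) and the named genes were chosen with earlier results of these data known. The rule for named genes took the 12 smallest p-values in each direction among genes with a value in all 11 libraries and a mean above the median row, predicted and clone names passed over, the 3 smallest p-values of each list, and a fixed panel. Of these, the genes that show the comparison are printed. Other genes, such as Manf, Hspa5, Maff, Egr3, Asns and Ttr, were chosen after their values were seen. So were the ER stress response element, the comparison by gene span and the joint removal of 2 libraries. Promoters (250 bases before to 50 after the start) and positions are those of RefSeq on GRCm38.p6. Alternatives covered normalization, filters, missing values, the samples fitted, the replicate block, the trend and each library left out.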

Additional observations from a re-analysis of the deposited data

How the results depend on the processing

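The count of genes past the threshold was 0 in the fit reported and in each alternative run but 1; those that left out 1 library each ranged from 0 to 0. With missing values set to the lowest value of the table it was 10 (8 higher, 2 lower), and each of the 10 had values at only 1 of the 2 times. With the replicate number as a block the count was 0, with 860 rows higher and 333 lower at an unadjusted p under 0.05. Deviations of same-numbered libraries correlated at 0.105 (replicates 1) and 0.148 (replicates 3); with 2 shared numbers this does not show that the libraries were paired. Of 1430 gene values under an alternative, 1380 kept their sign and none passed the threshold, and of 968 list medians 918 moved by less than the spread between libraries. Many of these agreements were fixed beforehand. For a gene with all values, a change of filter, trend or libraries outside the 2 times leaves the difference as it was. All turned signs came from alternatives that changed the 5 libraries, the normalization or the block.

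Signs turned for 22 of 65 genes. With cyclic loess the values were Cpt1a -0.0034, Hadha -0.0101. With the replicate block they were Slc2a1 -0.0476, Fasn -0.0151, Cd44 0.0171. With 6 h replicate 2 and 15 min replicate 3 both left out, where the lone 15 min library is assumed to vary like the other groups, they were Fosb 0.201, Egr1 0.136, Egr4 0.183, Nr4a3 0.235, Zbtb16 0.0897, Per1 0.0767, Nfkbia -0.0656, Irs2 0.151, Insr 0.0825, Cpt1a -0.134, Cpt2 -0.0235, Acadvl -0.109, Hadha -0.0914. Leaving out 1 library at a time gave ranges across 0 for these genes: Bdnf -0.0593 to 0.134, Klf4 -0.0619 to 0.108, Dusp1 -0.404 to 0.0649, Slc2a1 -0.0538 to 0.0664, Fasn -0.128 to 0.229, Dnajb1 -0.0257 to 0.486, Rn18s-rs5 -0.186 to 0.63, Fosb -0.276 to 0.201, Egr1 -0.468 to 0.136, Egr4 -0.895 to 0.183. Others were Nr4a3 -1.08 to 0.235, Zbtb16 -0.327 to 0.0897, Per1 -0.256 to 0.0767, Nfkbia -0.0656 to 0.232, Irs2 -0.172 to 0.151, Insr -0.214 to 0.0825, Cpt1a -0.134 to 0.193, Cpt2 -0.0235 to 0.348, Acadvl -0.109 to 0.192, Hadha -0.0914 to 0.102, Angptl4 -0.0822 to 0.549. The cause of these turns was not tested. Depth is unknown, and weak signals limit the precision, as the interval widths show.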

Other observations

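Gene span on the genome went with the sign of the difference. Of 23252 tested rows with a RefSeq span, 972 were over 200 kb, among them Kcnip4, Kcnd2 and Hs6st3. Among them 24 were lower at 1 h at an unadjusted limma p under 0.05 and 0 were higher, and the median log2 difference was -0.11. All 1 h libraries lay below both 15 min libraries in 13.4% of them and above in 2.67%. Among 8930 rows under 10 kb, 335 were higher and 148 lower, the median was 0.05, and 12.4% lay fully above against 5.21% below. The 2 classes between were intermediate, with medians of 0.04 (10 to 50 kb) and -0.03 (50 to 200 kb).

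The same values by library did not separate the times. Rows over 200 kb stood at -0.07 and 0.07 in 15 min replicates 1 and 3, and at -0.23, -0.11 and 0.03 in 1 h replicates 1, 2 and 3, relative to the mean of all 11 libraries, where saline replicate 3 stood at 0.31. Without 1 h replicate 3, 87 of 972 rows over 200 kb were lower and 1 was higher at an unadjusted limma p under 0.05. Of all 27588 rows in that fit, 686 were lower and 733 higher. Without 1 h replicate 1, 4 of 972 were lower and 2 higher, beside 333 and 507 of 27589. Without 15 min replicate 3, the median log2 difference of rows under 10 kb was -0.01.

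The smallest p of all rows was that of Crybb2, a beta crystallin, with log2 signals of -9.86 and -9.76 at 15 min and -6.12, -7.00 and -6.18 at 1 h (difference 3.37, SE 0.50). Saline (-7.82 to -6.72) and 6 h (-7.55 to -6.16) were near the 1 h level, so the 15 min libraries stand apart in this gene. All its signals were low, beside a median of -2.15 for all rows. Of the 969 rows at an unadjusted p under 0.05, 566 had a predicted or clone name, as had 11197 of all 27645. Their median signal was -3.99, beside -2.15 for all rows. Some rows had values at 1 time only, outside any test. In 236 rows all 1 h libraries and no 15 min library had a value, at a median level of -8.01, and in 196 rows the reverse held, at -7.86.

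Rn18s-rs5, a row of small-subunit ribosomal RNA, read 9.67 and 10.49 at 15 min and 10.18, 10.51 and 10.22 at 1 h, a difference of 0.22 (SE 0.73). Lars2 and Gphn differed by -0.54 (SE 0.56) and -0.49 (SE 0.47). In all 3 rows the saline libraries stood far above both times, at 13.05 to 16.00 for Rn18s-rs5, 5.53 to 6.82 for Lars2 and 4.06 to 5.32 for Gphn. Whether this bears on the saline levels given beside other genes was not tested.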
